A study of Mus musculus with 9 samples.

Results

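The mitochondrial ribosomal protein genes were followed in whole mouse hearts from shortly before birth to the end of the first postnatal week. Members were taken by symbol, as *Mrpl* (large subunit) or *Mrps* (small subunit) followed by a number and at most 1 further letter. This gave 78 of the 48820 genes in the deposited table, 49 *Mrpl* and 29 *Mrps* genes, all of them protein-coding. *Mrps23* stood in the table under 2 identifiers with the same 9 values and was counted once. The study sequenced RNA from 9 hearts of untreated wild-type C57BL/6J mice labelled male, with 3 biological replicates each at E18.5d (embryonic day 18.5), P1d (postnatal day 1) and P7d (postnatal day 7). The aim stated for the series was to compare gene expression between these stages. The hearts were not separated into cell types, so fewer cells of a type and less RNA per cell cannot be told apart in any value given here.

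Mitochondria carry ribosomes of their own, which translate the few messenger RNAs of mitochondrial DNA, all of them for inner membrane subunits of oxidative phosphorylation. The ribosomal RNAs of both subunits are encoded in mitochondrial DNA, whereas every protein of these ribosomes is encoded in the nucleus, made in the cytosol and imported. Some of the proteins have counterparts in bacterial ribosomes and others are found only in mitochondrial ribosomes. Heart muscle is rich in mitochondria, and inherited defects of several of these proteins cause cardiomyopathy in humans.

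Values are FPKM, the fragments of a gene divided by its transcript length and by the mapped fragments of the library. The depth read from the steps between low FPKM values was 25500000 to 45500000 fragments per heart. Every member was detected in every heart, and the thinnest value, that of *Mrps28*, rested on about 312 fragments in the heart where it had fewest. All 10 heart muscle markers were present in every heart, none below 168.5 FPKM. A heart with *Xist* above 1 FPKM goes against its male label, and 2 of the E18.5d hearts, 0 of the P1d hearts and 2 of the P7d hearts had such a level. The results without those 4 hearts are given with the comparisons.

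Between members, levels ranged widely. Mean FPKM over the 9 hearts went from 5.39 for *Mrpl57* to 389.5 for *Mrps21*, with a median of 33.4 over the 78 genes. The medians of the subunits were close, 33.9 FPKM for the *Mrpl* and 30.7 for the *Mrps* genes. *Mrps21*, whose protein has a bacterial counterpart in the small subunit, was the most abundant member. It had 450, 437 and 400 FPKM in the E18.5d hearts, 376, 382 and 419 in the P1d hearts and 372, 338 and 330 in the P7d hearts. All E18.5d hearts stood above all P7d hearts, while the P1d hearts overlapped with E18.5d.

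*Mrpl33*, a small protein of the large subunit, followed with a mean of 234.7 FPKM, and *Mrpl42*, a protein found only in mitochondrial ribosomes, with 176.9. *Mrpl33* and *Mrpl42* were apart by more than their spread at every stage, with 249 ± 11.5 against 216 ± 8.91 FPKM at E18.5d (mean ± SD, n = 3 here and below). At the lower end, *Mrpl57*, *Mrpl19* and *Mrpl35* had means of 5.39, 6.83 and 7.76 FPKM over all hearts. *Mrpl19* and *Mrpl35* were not apart at E18.5d, with 8.72 ± 0.542 and 9.10 ± 0.780 FPKM. The order of the 78 levels was nearly the same at each stage, with a Spearman rho across genes of 0.934 between E18.5d and P1d, 0.948 between E18.5d and P7d and 0.970 between P1d and P7d. Genes are not independent replicates, so these values are descriptions.

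The promoters were searched for the core letters of binding sites of NRF-1, of ETS factors such as GABP, and of YY1, since these factors are known for control of nuclear genes for mitochondrial proteins. RefSeq (GRCm38.p6) gave a promoter for 69 of the 78 members, read from 250 bases before to 50 bases after the first start listed. The letters searched on both strands were GCGCATGCG for NRF-1, CCGGAAG for ETS and AAGATGGCG for YY1. The NRF-1 letters stood in 7 member promoters (10.1%), the ETS letters in 25 (36.2%) and the YY1 letters in 8 (11.6%). Among 9498 protein-coding genes that were tested and had a promoter, the shares were 3.92%, 18.7% and 3.37%, and among all 27025 promoters 1.81%, 9.12% and 1.49%. At least 1 of the 3 stood in 35 member promoters (50.7%), against 24.4% of the tested protein-coding genes and 49.2% of 61 cytosolic ribosomal protein genes. By subunit, NRF-1 letters were in 6 of 43 *Mrpl* and 1 of 26 *Mrps* promoters, and YY1 letters in 4 of each. A match is a description of letters and was not tested as a binding site.

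The 120 bases before the start are shown for 6 members whose levels are described below, so that promoters with and without these letters can be read beside their courses. Capitals mark a match on either strand, and all are written 5′ to 3′ on the gene's own strand in GRCm38.p6. *Mrps25* (chr6:92184024-92184143, minus strand), *Mrps22* (chr9:98601680-98601799, minus), *Mrpl52* (chr14:54426789-54426908, plus) and *Mrpl36* (chr13:73330889-73331008, plus) fell from E18.5d to P7d. *Mrpl9* (chr3:94443216-94443335, plus) and *Mrps10* (chr17:47369077-47369196, plus) were highest at P1d. The ETS letters are marked in *Mrps22* and *Mrpl52*, the YY1 letters in *Mrpl36* and the NRF-1 letters in *Mrpl9*. None of the 3 was found in *Mrps25* or *Mrps10*, here or in their whole searched window.
Mrps25: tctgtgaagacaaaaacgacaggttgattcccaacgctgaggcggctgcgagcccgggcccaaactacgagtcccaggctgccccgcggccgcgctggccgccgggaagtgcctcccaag
Mrps22: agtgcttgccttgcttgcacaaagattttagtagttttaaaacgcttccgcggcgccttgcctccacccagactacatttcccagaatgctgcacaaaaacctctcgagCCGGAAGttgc
Mrpl52: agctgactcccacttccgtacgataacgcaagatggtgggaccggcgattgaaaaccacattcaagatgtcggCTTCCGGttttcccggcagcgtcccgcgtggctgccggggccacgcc
Mrpl36: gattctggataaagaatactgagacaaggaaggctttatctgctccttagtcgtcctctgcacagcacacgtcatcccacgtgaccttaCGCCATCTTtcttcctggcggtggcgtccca
Mrpl9: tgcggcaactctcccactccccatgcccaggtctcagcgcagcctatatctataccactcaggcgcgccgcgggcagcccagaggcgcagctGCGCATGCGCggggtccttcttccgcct
Mrps10: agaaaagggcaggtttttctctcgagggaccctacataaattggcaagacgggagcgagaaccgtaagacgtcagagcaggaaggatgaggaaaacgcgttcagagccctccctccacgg

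**Figure D1:**
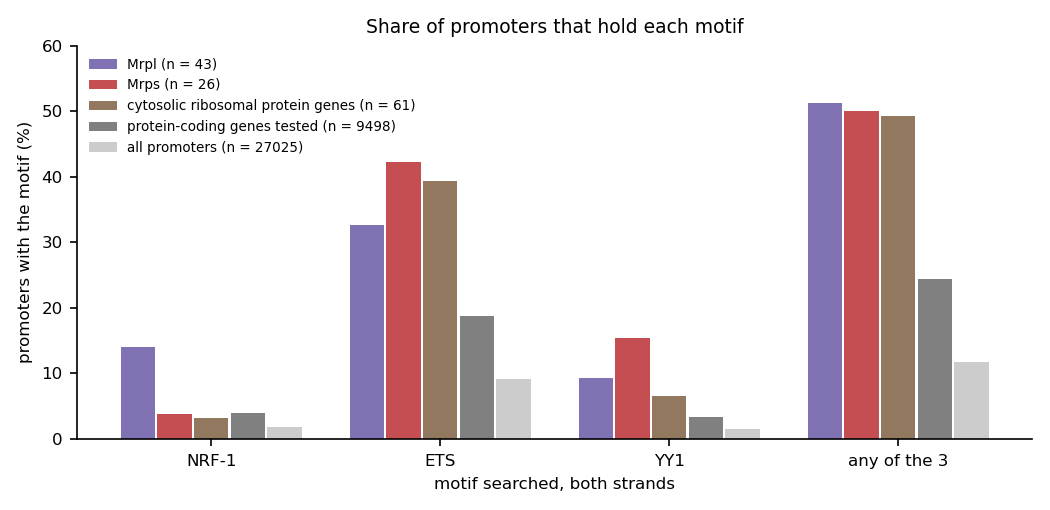
Bars give the percent of promoters (y axis, 0 to 60%) that hold the NRF-1, ETS or YY1 letters, or any of the 3 (x axis), for the Mrpl, Mrps and cytosolic ribosomal protein genes, the tested protein-coding genes and all promoters, with the number of promoters in the legend. The ETS letters stand in 32.6% of the Mrpl and 42.3% of the Mrps promoters, against 18.7% of the tested protein-coding genes.

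Between P7d and E18.5d hearts, mitochondrial ribosomal protein genes were lower or did not pass the test, in both subunits. With limma on log2(FPKM + 1) and Benjamini-Hochberg adjustment over 13618 genes averaging 1 FPKM or more (threshold 0.05), 50 of the 78 members fell (64.1%) and 0 rose. Over all genes tested, 36.9% were called lower and 12.5% higher. At an unadjusted p under 0.05, 55 members were lower and 0 higher. The median log2 change of the members was -0.32, beside -0.17 over all genes. Part of the direction thus moves with the scale of the columns. When the columns were rescaled by median of ratios, which brought the median of all genes to 0.01, 32 members were lower and 5 higher with a median of -0.12, while 18.7% of all genes were called lower and 23.2% higher. The 32 members lower on that scale were all among the 50, and they were lower as well when the columns were set to equal sums, to equal sums of nuclear protein-coding genes or to equal quantiles.

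In 53 of the 78 members (68.0%) every P7d heart lay below every E18.5d heart, which held for 45.6% of all genes tested. The reverse held for 1 member, *Mrps34*, and for 16.9% of all genes. By subunit, 33 of 49 *Mrpl* genes fell, with a median of -0.34, and 17 of 29 *Mrps* genes, with a median of -0.31.

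**Figure D2:**
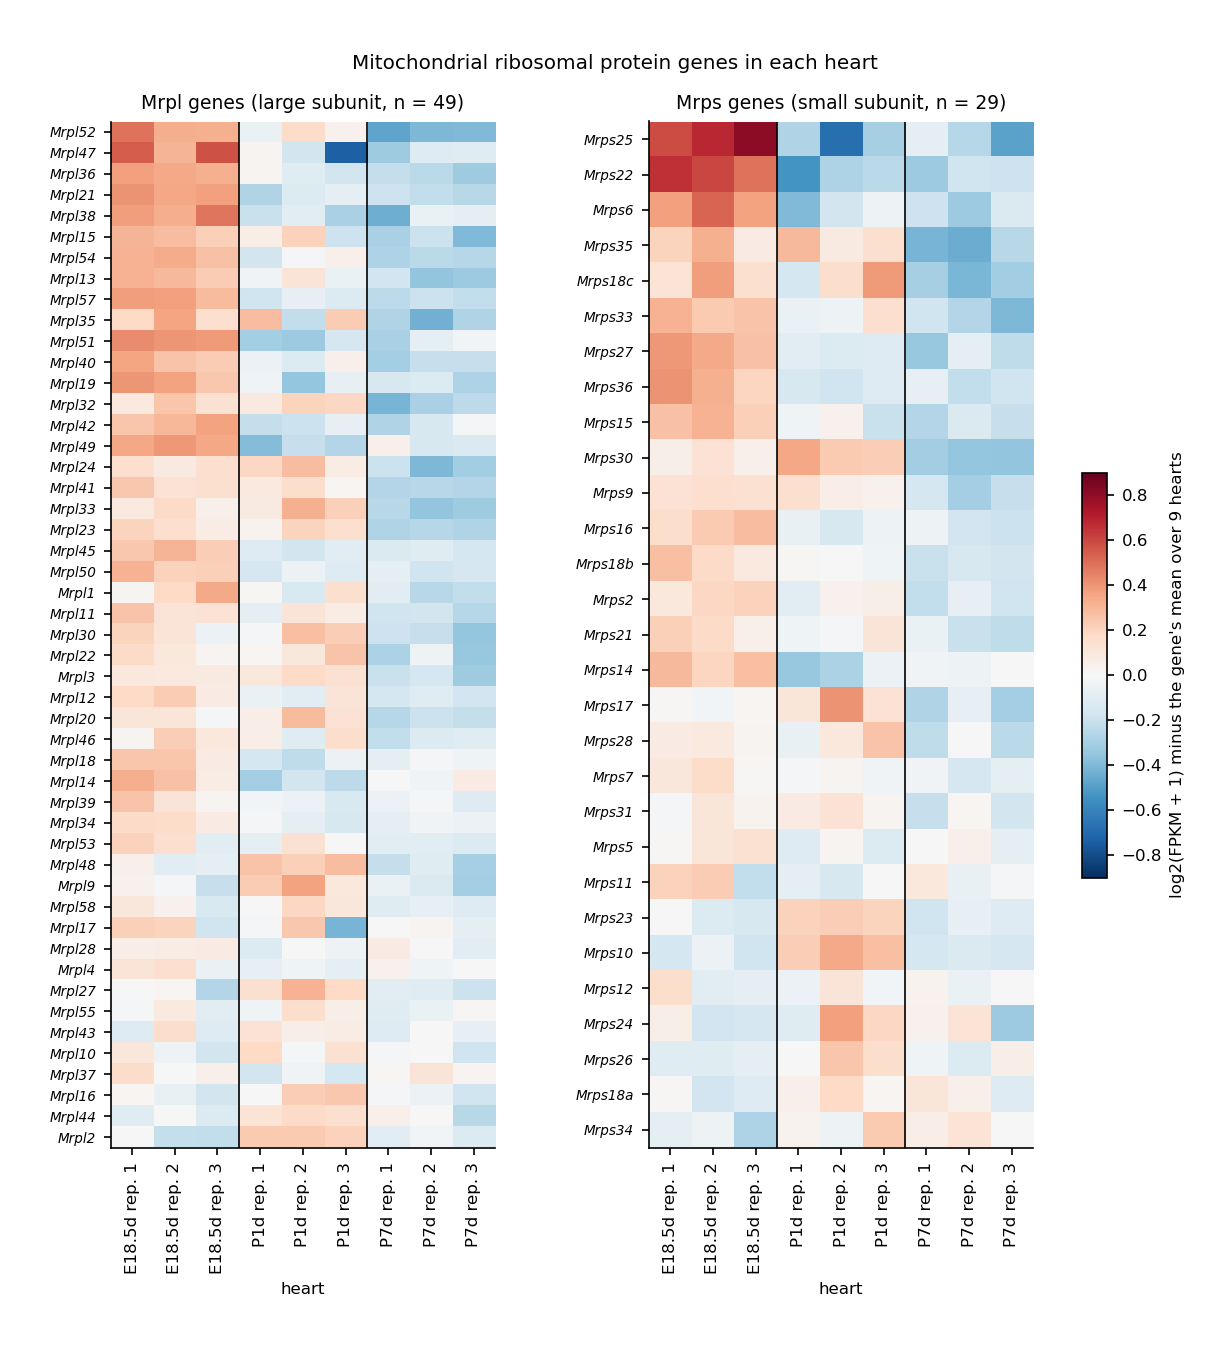
Each row is a member (49 Mrpl left, 29 Mrps right) and each column a heart, and colour gives log2(FPKM + 1) minus the gene's mean over the 9 hearts. Rows are ordered by the change from E18.5d to P7d, so the upper rows are red in the E18.5d hearts and blue in the P7d hearts, and lower rows such as Mrps10 and Mrpl2 are highest in the P1d hearts.

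The largest decrease of an *Mrpl* gene was that of *Mrpl52* (chr14:54426909-54429756, plus strand), which encodes a protein found only in mitochondrial ribosomes. It had 128, 114 and 114 FPKM in the E18.5d hearts, 87.5, 102 and 93.6 in the P1d hearts and 65.1, 68.4 and 68.8 in the P7d hearts. The stages did not overlap, with the P1d hearts between the others. From E18.5d to P7d its mean fell by 43.3%, a log2 change of -0.81 ± 0.07 (SE, limma adjusted p = 2.96e-05).

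The other large subunit genes named by size of decrease were *Mrpl47*, *Mrpl36*, *Mrpl21* and *Mrpl38*, the first 3 with bacterial counterparts. *Mrpl36* had 31.3, 30.7 and 30.2 FPKM at E18.5d and 20.5, 20.2 and 19.0 at P7d, with 24.5, 22.2 and 21.3 at P1d. No stage of *Mrpl36* overlapped another, and the hearts of a stage lay close together. *Mrpl21* went from 42.7 ± 0.929 to 27.9 ± 0.651 FPKM and *Mrpl38* from 37.2 ± 2.08 to 24.5 ± 3.58. *Mrpl47* went from 14.8 ± 1.55 to 8.98 ± 0.815 FPKM, and its call was lost by median of ratios (adjusted p = 0.0576). Of the exon bases of *Mrpl47*, 13.9% are shared with *Ndufb5* on the opposite strand, a gene with a mean of 269 FPKM that was lower at P7d as well (-0.31, adjusted p = 0.00213). Another 10.2% are shared with *Actl6a*, also on the opposite strand, which fell by 0.58 on the log2 scale to P7d and by 0.53 to P1d. The kit named in the labels does not mark strand, so reads of these genes cannot be told apart there, and their part in the *Mrpl47* value was not tested.

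Among the *Mrps* genes, *Mrps25* and *Mrps22* fell furthest. *Mrps25* (chr6:92169525-92184033, minus strand) encodes a protein found only in mitochondrial ribosomes. Its FPKM were 24.6, 26.3 and 28.7 at E18.5d, 13.1, 9.60 and 12.8 at P1d and 15.01, 13.2 and 11.2 at P7d. The E18.5d hearts stood far above the others, and the P1d and P7d hearts overlapped. The log2 change from E18.5d to P7d was -0.97 ± 0.13 (limma adjusted p = 0.000319). In the annotation 69.8% of the *Mrps25* exon bases are also exon of *Nr2c2* on the opposite strand. *Nr2c2* itself had stage means of 20.4, 21.3 and 19.6 FPKM, with a log2 change of -0.05 from E18.5d to P7d (adjusted p = 0.597). Reads of *Mrps25* and *Nr2c2* cannot be told apart in the shared bases, so the level of *Mrps25* is uncertain. The part of *Nr2c2* reads in the *Mrps25* values was not tested.

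*Mrps22* (chr9:98588730-98601660, minus strand), a small subunit protein whose defects in humans are linked to cardiomyopathy, had 32.3, 31.0 and 28.7 FPKM at E18.5d, 13.6, 16.5 and 16.9 at P1d and 15.9, 17.7 and 17.6 at P7d. Here too the E18.5d hearts were apart from all others, and P1d and P7d overlapped. The change from E18.5d to P7d was -0.81 ± 0.09 (limma adjusted p = 9.04e-05). *Mrps6*, *Mrps35* and *Mrps18c* were next. *Mrps6*, with a bacterial counterpart, went from 27.0 ± 1.81 to 17.0 ± 1.23 FPKM. It shares 10.4% of its exon bases with *Slc5a3* on the same strand, which was lower at P7d as well (log2 change -1.22, limma adjusted p = 6.46e-05). *Gm49711*, a protein-coding gene on the same strand, shares 19.9% of the *Mrps6* exon bases and has no value in the deposited table. The part of *Slc5a3* or *Gm49711* reads in the *Mrps6* value was not tested. *Mrps35* went from 80.2 ± 6.86 to 53.6 ± 4.12 FPKM and *Mrps18c* from 44.4 ± 4.49 to 29.8 ± 1.35.

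The 28 members that did not pass the test at P7d against E18.5d included *Mrps34*, a small subunit protein, with 44.1, 45.2 and 38.3 FPKM at E18.5d and 48.6, 50.8 and 46.7 at P7d. Its P7d hearts lay above the E18.5d hearts by a small margin, with a log2 change of 0.19 ± 0.09 and a limma adjusted p of 0.0911. By median of ratios it was called higher (0.40, adjusted p = 0.00638). *Mrps34* shares 63.4% of its exon bases with *Mapk8ip3* and 37.0% with *Nme3*, and so its level is uncertain. *Mrpl2*, *Mrps26*, *Mrps18a* and *Mrps10* were the other members called higher on that scale, at 0.27, 0.26, 0.31 and 0.18, whereas on the deposited scale none of the 4 passed and *Mrps10* had the opposite sign (-0.02).

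**Figure D3:**
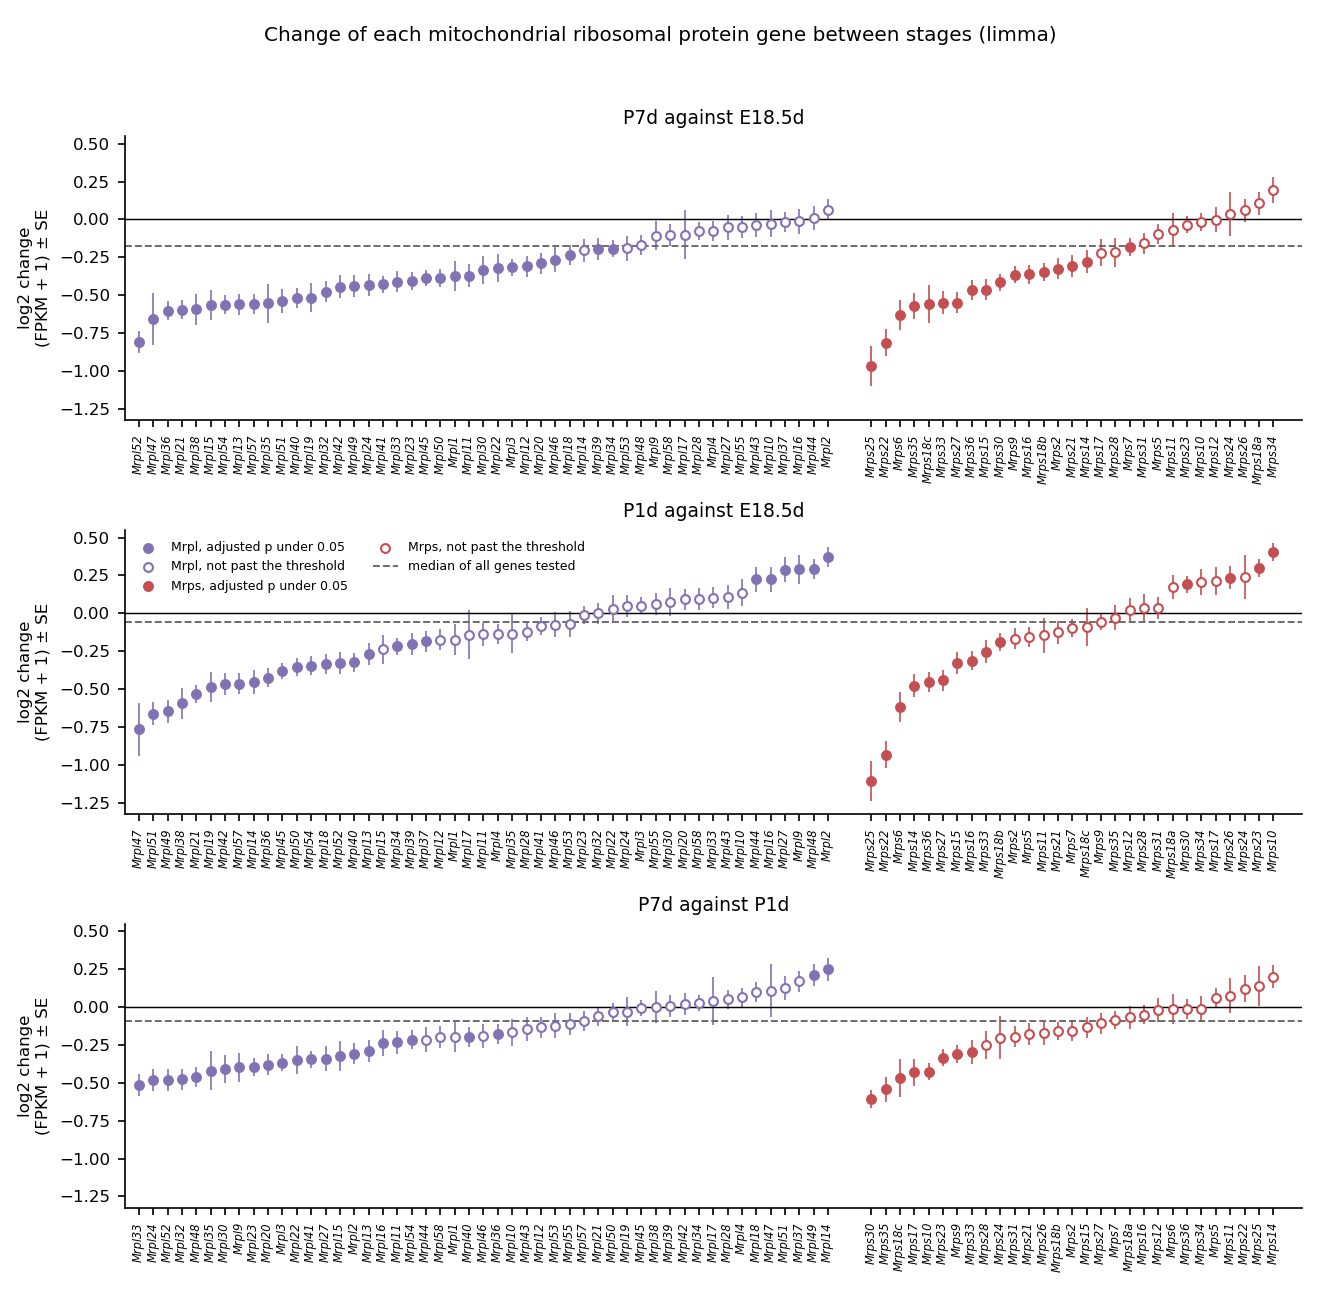
Each point is the log2 change of a member (y axis, on the FPKM + 1 scale) with its standard error, ordered within the Mrpl (purple) and Mrps (red) genes along the x axis, for each of the 3 comparisons. Filled points passed the limma threshold, and the dashed line is the median of the 13618 genes tested, at -0.17, -0.06 and -0.09 from top to bottom. In the upper panel no filled point lies above 0, and in the middle panel filled points lie on both sides.

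At P1d against E18.5d the members split. Of the 78 genes, 30 fell (38.5%) and 10 rose (12.8%), beside 27.6% lower and 18.4% higher among all genes tested. The median log2 change of the members was -0.14 and that of all genes -0.06. By median of ratios 25 members were lower and 13 higher, beside 22.3% and 23.6% of all genes, and the member median was -0.06. The 10 higher calls were all kept by median of ratios, but 0 were left when the columns were set to equal sums, which moved the member median to -0.30. Without the third E18.5d heart 4 were called higher, and without the second P1d heart 6, beside 14.6% and 16.1% of all genes. Every P1d heart lay below every E18.5d heart in 34 members (43.6%, all genes 32.3%) and above in 12 (15.4%, all genes 22.1%).

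The decrease of *Mrps25* and *Mrps22* was already present at P1d, with log2 changes of -1.11 ± 0.13 (limma adjusted p = 0.000159) and -0.93 ± 0.09 (adjusted p = 4.62e-05). *Mrps6* (-0.62 ± 0.10), *Mrpl47* (-0.77 ± 0.17), *Mrpl51* (-0.66 ± 0.08) and *Mrpl49* (-0.65 ± 0.07) were the other named decreases of this step. *Mrpl51*, a large subunit protein without bacterial counterpart, had 49.5, 48.5 and 48.0 FPKM at E18.5d and 29.5, 28.99 and 32.8 at P1d, and 29.7, 34.4 and 36.0 at P7d. The E18.5d hearts were well apart, while the P1d and P7d hearts overlapped. *Mrpl42*, among the most abundant members, showed the same order, with 208, 215 and 225 FPKM at E18.5d, 150, 152 and 166 at P1d and 145, 158 and 173 at P7d.

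Among the increases, *Mrps10* (chr17:47368887-47381417, plus strand), a small subunit protein with a bacterial counterpart, had the largest. It had 22.0, 23.8 and 21.6 FPKM at E18.5d, 28.9, 31.5 and 29.9 at P1d and 22.0, 22.4 and 22.0 at P7d. The P1d hearts stood above all others, and the E18.5d and P7d hearts overlapped. The log2 change to P1d was 0.41 ± 0.06 (limma adjusted p = 0.000496). *Mrpl2*, a core protein of the large subunit with a bacterial counterpart, had 53.7, 46.3 and 46.0 FPKM at E18.5d and 63.6, 63.5 and 62.4 at P1d (0.37 ± 0.07, adjusted p = 0.00177). The P1d hearts of *Mrpl2* were nearly equal and all higher. *Mrpl48* rose from 32.6 ± 1.87 to 40.1 ± 0.862 FPKM, *Mrpl9* from 33.4 ± 3.01 to 41.1 ± 3.85, *Mrps23* from 34.3 ± 1.99 to 42.4 ± 0.330 and *Mrps26* from 13.6 ± 0.174 to 16.2 ± 1.45.

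At P7d against P1d, 30 members were lower (38.5%) and 2 higher, beside 28.6% and 15.5% of all genes tested, with a median of -0.17 against -0.09 over all genes. This count depended on the scale. By median of ratios 17 members were lower and 9 higher, beside 18.2% and 23.5% of all genes, and the member median was -0.04. The comparison shares the P1d hearts with that of P1d against E18.5d, so a P1d value that is high or low enters both. Of the 30 lower members, 22 were *Mrpl* and 8 *Mrps* genes, and the 2 higher ones were *Mrpl* genes. All P7d hearts lay below all P1d hearts in 41 members (52.6%, all genes 34.3%) and above in 4 (5.13%, all genes 19.3%).

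*Mrps30* (chr13:118378381-118387252, minus strand) had the largest decrease of this step. Despite its symbol, its protein sits in the large subunit. It had 25.9, 27.4 and 25.8 FPKM at E18.5d, 32.0, 29.5 and 29.3 at P1d and 19.9, 19.4 and 19.3 at P7d. No stage overlapped another, with the P1d hearts highest and the P7d hearts lowest. The log2 change from P1d to P7d was -0.61 ± 0.06 (limma adjusted p = 6.33e-05), beside 0.19 ± 0.06 from E18.5d to P1d (adjusted p = 0.0208).

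*Mrpl33* had 247, 262 and 239 FPKM at E18.5d, 246, 290 and 269 at P1d and 194, 181 and 185 at P7d. Its E18.5d and P1d hearts overlapped, and all P7d hearts were below both. The step from P1d was -0.51 ± 0.07 (adjusted p = 0.000421). *Mrps35* showed the same order, with 85.3, 73.7 and 76.7 FPKM at P1d and 51.7, 50.8 and 58.3 at P7d (-0.54 ± 0.09, adjusted p = 0.000914), and its E18.5d hearts, at 80.2, 87.1 and 73.3, overlapped with P1d. *Mrpl24* and *Mrpl52* fell by 0.48 each on the log2 scale from P1d to P7d, and 26.3% of the *Mrpl24* exon bases are shared with *Rrnad1* on the opposite strand. *Mrps18c* fell by 0.47, a call lost by median of ratios (adjusted p = 0.0544).

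*Mrpl14* and *Mrpl49* were the 2 members that rose from P1d to P7d. *Mrpl14*, a core large subunit protein with a bacterial counterpart, had 32.3, 30.9 and 26.7 FPKM at E18.5d, 20.5, 22.6 and 21.6 at P1d and 25.6, 24.96 and 26.9 at P7d. Its P1d hearts were the lowest, and its P7d hearts overlapped with the lowest E18.5d heart alone. The steps were -0.45 ± 0.08 (limma adjusted p = 0.00124) and 0.25 ± 0.08 (adjusted p = 0.0255). Of the *Mrpl14* exon bases, 11.2% are shared with *Tmem63b* on the opposite strand, a gene with a mean of 24.6 FPKM. *Tmem63b* changed by 0.31 to P1d (limma adjusted p = 0.0147) and by 0.08 from P1d to P7d (adjusted p = 0.455). The part of its reads in the *Mrpl14* values was not tested. *Mrpl49* had 22.2, 22.8 and 22.2 FPKM at E18.5d, 12.9, 14.8 and 14.2 at P1d and 17.8, 15.5 and 15.6 at P7d, with no overlap between stages. The rise of *Mrpl49* was 0.21 ± 0.07 (adjusted p = 0.0403), and both rises were kept by median of ratios, at 0.38 and 0.34. With the first P1d heart, the first P7d heart or the third P7d heart left out, 0 members were called higher in this step. Of all genes, 13.1%, 12.8% and 12.1% were higher in those fits.

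**Figure D4:**
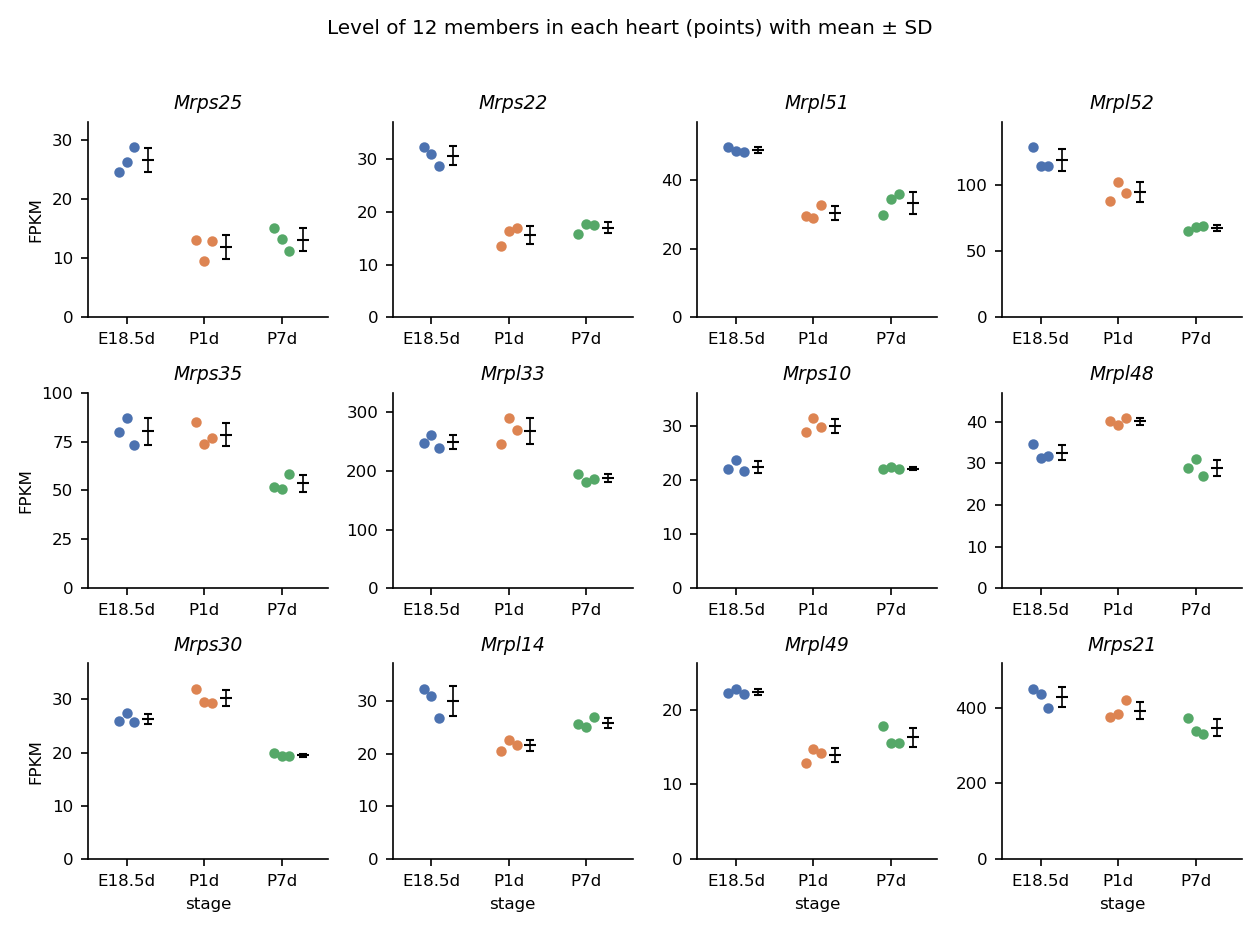
Panels give the FPKM of 12 members (y axis from 0) in each of the 3 hearts of E18.5d, P1d and P7d (points), with mean ± SD beside them. Mrps25, Mrps22 and Mrpl51 are lower from P1d on, Mrps35 and Mrpl33 at P7d, Mrps10, Mrpl48 and Mrps30 are highest at P1d, and Mrpl14 and Mrpl49 are lowest at P1d.

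The subunits, taken by symbol, were compared within each heart, where the scale of a column cancels out. The difference between the median deviation of the *Mrpl* and that of the *Mrps* genes from their own means was 0.02 ± 0.04 on the log2 scale in the E18.5d hearts, 0.01 ± 0.05 in the P1d hearts and -0.01 ± 0.01 in the P7d hearts, and the hearts of the stages overlapped. The ratio of the *Mrpl* to the *Mrps* median level was 1.06, 1.13 and 1.10 in the E18.5d hearts, 1.08, 1.12 and 1.12 at P1d and 1.08, 1.10 and 1.01 at P7d. In the comparisons the large minus small difference of the median log2 changes was -0.03 at P7d against E18.5d, -0.04 at P1d against E18.5d and -0.04 at P7d against P1d. The spread between hearts (SD) was 0.04. With subunits taken by place, *Mrps18a* and *Mrps30* count as large and *Mrps36* is left out. The differences were then -0.043, -0.024 and -0.034 in the same order. The members' share of all FPKM of nuclear protein-coding genes started from 0.799% ± 0.0175 in the E18.5d hearts, with 0.745% ± 0.0221 in the P1d and 0.716% ± 0.00640 in the P7d hearts. All E18.5d hearts had a higher share than all later hearts, and all P7d hearts a lower one than all others.

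**Figure D5:**
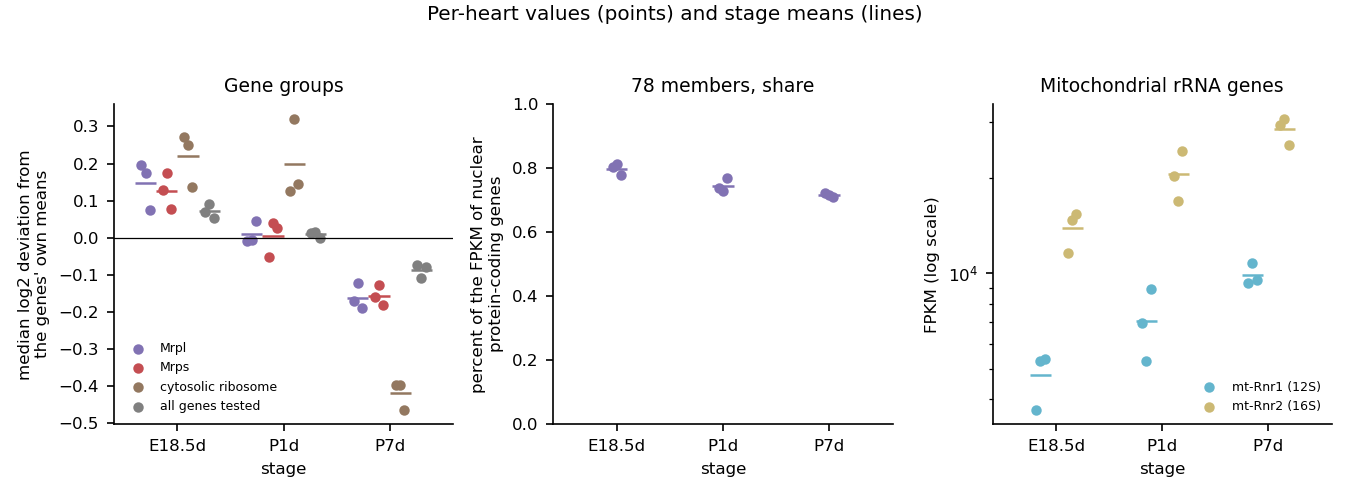
Left, the median log2 deviation from the genes' own means in each heart for Mrpl, Mrps, cytosolic ribosomal protein genes and all genes tested. Middle, the percent of the FPKM of nuclear protein-coding genes taken by the 78 members, from 0.812% in an E18.5d heart to 0.709% in a P7d heart. Right, FPKM of the mitochondrial ribosomal RNA genes on a log axis. Points are hearts and lines stage means, and the Mrpl and Mrps points of a stage lie together.

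Members were also grouped by whether their proteins have bacterial counterparts. Of 46 with a counterpart, 29 fell (63.0%) and 0 rose from E18.5d to P7d with a median log2 change of -0.31. Of 31 grouped as found only in mitochondria, 20 fell (64.5%) and 0 rose with a median of -0.39. Among all genes 36.9% were lower and 12.5% higher. Rescaled by median of ratios, the counts were 14 lower and 2 higher of the 46 (30.4% lower) and 17 lower and 3 higher of the 31 (54.8%). Among all genes 18.7% were lower and 23.2% higher. The 31 include *Mrps18a*, although it is a homolog of a bacterial protein as described below, and it is 1 of the 3 higher. At P1d against E18.5d, 12 of the 46 fell (26.1%) and 5 rose, and 17 of the 31 fell (54.8%) and 5 rose. Among all genes 27.6% were lower there and 18.4% higher. The groups were not tested against each other. *Mrps36* belongs to neither, since its protein is now known as a part of the 2-oxoglutarate dehydrogenase complex and not of the ribosome. *Mrps36* had 80.4, 75.8 and 69.5 FPKM at E18.5d, 54.6, 53.4 and 55.9 at P1d and 57.4, 51.8 and 53.3 at P7d, with all E18.5d hearts above the rest.

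Mammals have 3 homologs of the bacterial small subunit protein S18. *Mrps18a*, whose protein sits in the large subunit, had 56.3, 49.5 and 51.4 FPKM at E18.5d, 57.8, 63.2 and 56.5 at P1d and 60.2, 57.6 and 51.6 at P7d, without passing the test in any comparison on the deposited scale. By median of ratios it rose from E18.5d to both P7d (0.31) and P1d (0.25). *Mrps18b* went from 35.2 ± 2.34 through 30.7 ± 0.551 to 27.4 ± 0.531 FPKM (P7d against E18.5d -0.35 ± 0.06, limma adjusted p = 0.00119), without overlap of the stages, a call lost by median of ratios (adjusted p = 0.0968). *Mrps18c* did not pass at P1d (-0.09 ± 0.13) and was lower at P7d, as given above. Differences between these changes were not tested.

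Of the members linked to cardiomyopathy in humans, *Mrps22* fell early and *Mrpl3* late. *Mrpl3*, a core large subunit protein, had 59.5, 59.2 and 58.9 FPKM at E18.5d, 59.6, 63.2 and 61.2 at P1d and 48.2, 49.8 and 44.3 at P7d. All P7d hearts were below the others (P7d against E18.5d -0.31 ± 0.06, limma adjusted p = 0.00161), although by median of ratios that call was lost (adjusted p = 0.209). *Mrpl44* had 16.8, 18.2 and 16.7 FPKM at E18.5d and rose to a mean of 20.3 ± 0.38 FPKM at P1d (0.22 ± 0.08, adjusted p = 0.0464), and had 18.9, 18.2 and 15.2 FPKM at P7d.

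Known proteins of the mitochondrial ribosome with other symbols were mostly lower too. Of *Dap3*, *Ptcd3*, *Chchd1* and *Aurkaip1* of the small subunit and *Gadd45gip1* of the large subunit, 4 fell and 0 rose from E18.5d to P7d. Among all genes 36.9% were lower and 12.5% higher. *Chchd1* had 90.8, 84.4 and 83.7 FPKM at E18.5d, 48.9, 48.8 and 58.5 at P1d and 45.3, 42.2 and 48.0 at P7d, a log2 change to P7d of -0.92 ± 0.08 (limma adjusted p = 2.80e-05). Its P1d and P7d hearts were apart by little, with a step of -0.20 that did not pass (adjusted p = 0.077). *Dap3* had 55.2, 49.7 and 53.8 FPKM at E18.5d, 44.9, 53.0 and 44.3 at P1d and 31.2, 32.8 and 34.1 at P7d, with its decrease after P1d (-0.52 ± 0.08, adjusted p = 0.000768). *Ptcd3* and *Gadd45gip1* changed by -0.36 and -0.50, and *Aurkaip1* did not pass (-0.27, adjusted p = 0.068). By median of ratios 3 of the 5 were lower, beside 18.7% of all genes.

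The ribosomal RNAs of the same ribosome went the other way. *mt-Rnr1*, the RNA of the small subunit, had 3716, 5284 and 5371 FPKM at E18.5d, 6947, 5293 and 8914 at P1d and 9358, 10790 and 9551 at P7d. *mt-Rnr2*, that of the large subunit, had 11612, 14746 and 15433 FPKM at E18.5d, 20298, 16913 and 24368 at P1d and 29417, 30765 and 25470 at P7d. All P7d hearts were above all E18.5d hearts for both, with log2 changes of 1.06 ± 0.20 (limma adjusted p = 0.00183) and 1.04 ± 0.16 (adjusted p = 0.000693). How ribosomal RNA was removed from the libraries is not given in the sources used here, and its part in these values was not tested.

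At P7d against E18.5d, lists for the making and use of the mitochondrial ribosome had shares of lower calls below or near the 36.9% of all genes. Among 27 assembly factors, 8 fell (29.6%) and 0 rose from E18.5d to P7d, with a median of -0.17, equal to that of all genes. *Malsu1*, a factor of the large subunit, had 7.76, 7.16 and 7.86 FPKM at E18.5d, 9.24, 9.32 and 9.33 at P1d and 4.56, 4.55 and 4.69 at P7d, with no overlap between stages and its highest level at P1d. Its log2 change to P7d was -0.62 ± 0.06 (limma adjusted p = 6.21e-05). *Tfb1m*, which methylates the small ribosomal RNA, changed by -0.54. Of 15 translation factors 4 fell (26.7%) and 0 rose, with a median of -0.14. The largest decrease was that of *Slirp*, a partner of *Lrpprc* in keeping mitochondrial messenger RNAs (-0.73), followed among the named genes by the initiation factor *Mtif2* (-0.31, lost by median of ratios at an adjusted p of 0.410). Of 20 genes for the charging of mitochondrial transfer RNAs 8 fell (40.0%) and 0 rose, with a median of -0.15, and *Ears2* (-1.24 ± 0.09, adjusted p = 6.26e-06) and *Yars2* (-0.61) had the largest decreases. *Ears2* had 17.2, 16.7 and 15.3 FPKM at E18.5d, 14.1, 13.8 and 13.1 at P1d and 7.28, 5.78 and 6.06 at P7d. Rescaled by median of ratios, the lists had 4 of 27, 1 of 15 and 4 of 20 genes lower and 3, 3 and 5 higher. Among all genes 18.7% were lower and 23.2% higher. At P1d against E18.5d the lists had 6 (22.2%), 7 (46.7%) and 9 (45.0%) genes lower and 5, 1 and 2 higher. The shares of all genes there were 27.6% and 18.4%. By median of ratios 4, 6 and 7 were lower at P1d and 6, 2 and 2 higher, beside 22.3% and 23.6% of all genes.

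The proteins of the cytosolic ribosome, chosen by *Rpl* and *Rps* symbols and so with some tissue-specific paralogs among them, were set beside them. Of 83 tested, 81 fell (97.6%) and 1 rose from E18.5d to P7d with a median log2 change of -0.63, beside 36.9% lower and 12.5% higher among all genes. By median of ratios 66 were lower (79.5%) and 1 higher with a median of -0.42, beside 18.7% and 23.2% of all genes. Their share of nuclear protein-coding FPKM went from 11.8% ± 0.45 at E18.5d and 12.4% ± 0.443 at P1d to 8.85% ± 0.152 at P7d. From E18.5d to P1d their median change was -0.00, with 16 lower (19.3%) and 6 higher (7.23%), beside 27.6% and 18.4% of all genes. The balance of that step turned by median of ratios, to 7 lower and 14 higher, beside 22.3% and 23.6% of all genes. Of the 78 mitochondrial members, 30 were lower at that step on the deposited scale and 25 by median of ratios. The difference between these groups was not tested.

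The members are spread over 17 chromosomes. A feature that the rule did not use is their arrangement: 33 of the 78 (42.3%) have the start of another gene on the opposite strand within 1000 bases, head to head, against 16.1% of 12073 protein-coding genes tested (GENCODE M21, GRCm38). *Mrpl46* and *Mrps11*, of the large and the small subunit, are such a pair, with starts 412 bases apart. They share 173 exon bases, 12.2% of those of *Mrpl46* and 8.0% of those of *Mrps11*. Reads there cannot be told apart, and their part in either value was not tested. *Mrpl46* had 20.4, 23.5 and 21.5 FPKM at E18.5d and 17.1, 18.3 and 18.5 at P7d, and fell by 0.27 on the log2 scale (limma adjusted p = 0.0233, by median of ratios 0.570). *Mrps11* had 27.3, 27.7 and 20.01 FPKM at E18.5d and 25.1, 22.4 and 23.1 at P7d, a change of -0.07 (adjusted p = 0.643), and its hearts overlapped. Other partners were *Ndufs6* for *Mrpl36* (29 bases), *Sars2* for *Mrps12* (172 bases) and *Fau*, a gene of the cytosolic ribosome, for *Mrpl49* (59 bases).

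Some member values may hold reads of other genes. In the annotation 12 members share at least 10% of their exon bases with another protein-coding gene. Without these 12 the counts were 43 lower and 0 higher of 66 at P7d against E18.5d. They were 24 lower and 10 higher at P1d against E18.5d and 29 lower and 1 higher at P7d against P1d. Among all genes 36.9%, 27.6% and 28.6% were lower in these comparisons and 12.5%, 18.4% and 15.5% higher. Processed pseudogenes nearly identical to a member transcript were at low levels where they had a value. *Mrpl23-ps1*, identical to *Mrpl23* over 540 bases, had a mean of 0.996 FPKM. Such a pseudogene of *Mrpl21*, *Mrpl22*, *Mrps10* and *Mrps26* has no value in the deposited table. Stretches of *Mrps26* also nearly match the protein-coding genes *Dennd5b*, *Dnajb14*, *Rab33b* and *Tapbpl*. The mean of *Dennd5b* was above that of *Mrps26*, and the other 3 were below it. The part of reads from near copies in the member values was not tested. The correlation of the change from E18.5d to P7d with the log2 of transcript length was -0.15 (Pearson) over the 78 members and 0.06 over all genes, given as a description since genes of a heart share its library.

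Markers of other cell types moved over the same stages. The summed level of 7 endothelial markers ranged from 413 to 447 FPKM at E18.5d, from 489 to 533 at P1d and from 543 to 562 at P7d, and that of 7 fibroblast markers from 1988 to 2091, from 1679 to 2225 and from 2670 to 2755. From E18.5d to P7d, 5 of the endothelial markers rose and 1 fell, and 2 of the fibroblast markers rose and 0 fell. Of the 10 heart muscle markers, 4 rose and 3 fell, beside 12.5% and 36.9% of all genes. From E18.5d to P1d, 3 endothelial markers rose and 1 fell, 0 fibroblast markers rose and 3 fell, and 5 heart muscle markers rose and 1 fell. The shares of all genes there were 18.4% and 27.6%. The 7 macrophage markers summed to 42.8 to 56.7 FPKM at E18.5d, 67.4 to 90.02 at P1d and 65.4 to 72.4 at P7d, and the 10 heart muscle markers to 36700 to 39770, 40900 to 46000 and 40780 to 42340. None of these markers was at 0 in a heart. For 6 red cell markers the sums were 5807 to 15470 FPKM at E18.5d, 8921 to 17120 at P1d and 5718 to 7406 at P7d, and for 4 brown fat markers 5.94 to 7.77, 24.6 to 26.1 and 32.3 to 37.5, with 1 to 3 of the latter at 0 in a heart. From E18.5d to P7d, 3 of 6 macrophage markers tested rose and 0 fell, and 0 of 6 red cell markers passed. All 3 brown fat markers tested rose. The part of these cell types in the changes of the members was not tested.

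With *Xist* above 1 FPKM as a covariate, the counts were 49 lower and 0 higher at P7d against E18.5d, 25 lower and 4 higher at P1d against E18.5d and 18 lower and 1 higher at P7d against P1d. Of all genes, 35.4%, 21.2% and 17.9% were called lower in these comparisons and 12%, 11.8% and 10.8% higher. Without the 4 hearts concerned, 1 heart was left at E18.5d and at P7d, and the lone hearts were taken to vary like those of P1d. The member medians were then -0.31 at P7d against E18.5d, -0.18 at P1d against E18.5d and -0.17 at P7d against P1d. With so few hearts 0 members passed at P7d against E18.5d and at P7d against P1d, and 2 were lower at P1d against E18.5d, while 0.742%, 0.764% and 4.29% of all genes were called lower in these comparisons.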

How the data were processed

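RNA was measured in 9 mouse hearts, 3 biological replicates at each of E18.5d, P1d and P7d. Per the labels, libraries were made from total RNA with the NEBNext Ultra RNA kit, and the submitters' processing notes name STAR and the mouse build GRCm38 (mm10). The deposited values are FPKM per gene and heart, made by the authors. The counting tool, its annotation and the removal of ribosomal RNA are not given in the sources used here. Counts were not used here, and the depth of 25500000 to 45500000 fragments per heart was estimated from the steps between low values, of which 92.8 to 95.1% were whole multiples.

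Genes with a mean under 1 FPKM were left out, which kept all 78 members. Values were tested as log2(FPKM + 1) with limma 3.58.1 in R 4.3.3 (trend), all 3 stages in the same fit, with Benjamini-Hochberg adjustment over all 13618 genes and a threshold of 0.05. A fold change on this scale understates the change of low genes. The number of hearts, 3 a stage, limits the precision. The test was checked on simulated data, where for P7d against E18.5d it called 52 of 100 genes changed by 0.5 and 88 of 100 changed by 1 on the log2 scale. Gene positions are from GENCODE M21 and promoters from RefSeq, both on GRCm38.

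Genes were named by a rule, the 5 largest changes per direction and subunit at P7d against E18.5d and the 3 largest in the other comparisons, among called members with no overlap between the hearts of both stages, besides the 3 highest and 3 lowest levels and short lists by role. *Mrps34*, *Mrpl46* and *Mrps11* were chosen after their values were seen. The members and all lists were chosen with earlier results of these data known. Replicate numbers did not pair the hearts. In all, 25 alternative settings were run.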

Additional observations from a re-analysis of the deposited data

How the results depend on the processing

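At P7d against E18.5d, median of ratios gave 5 members higher and 32 lower with a median of -0.12, equal sums of protein-coding genes 4 higher with a median of -0.16, quantile normalization 4 higher with a median of -0.18 and the length correction 8 higher with a median of -0.16. Of all genes, 23.2%, 20.2%, 21.2% and 21.5% were called higher in these settings, in the same order, and 18.7% lower by median of ratios. At P1d against E18.5d, equal column sums gave 0 higher and a median of -0.30, the *Xist* covariate 4 higher, and the medians were -0.069 (length), -0.062 (median of ratios) and -0.080 (quantile). Higher calls among all genes were 8.63% with equal column sums and 11.8% with the covariate. At P7d against P1d, the higher and lower calls were 9 and 17 by median of ratios (median -0.041), 11 and 16 with equal protein-coding sums (-0.022), 9 and 16 with the length correction (0.0071, opposite in sign) and 1 and 18 with the *Xist* covariate. Among all genes the higher and lower shares were, in the same order, 23.5% and 18.2%, 24.2% and 16.4%, 21.9% and 20%, and 10.8% and 17.9%. Quantile normalization gave 8 higher (-0.054) and equal column sums 12 lower (-0.045), beside 21.1% higher and 12.7% lower among all genes. A single member, 1, was higher without trend, without the filter, with only the stages compared, or without the members that share exon bases, an alternative chosen after seeing the data. The all-gene shares higher were 15.6% without trend, 7.49% without the filter and 13.5% with only the stages compared. Large minus small there was 0.0080 with the covariate and 0.0066 without the hearts with *Xist*, against -0.04. Without those hearts, 0 were lower at P7d against E18.5d, 2 lower and 0 higher at P1d against E18.5d, and 0 lower and 0 higher at P7d against P1d. A log2 change of at least 1 left 0 lower, 1 lower and 0 higher, and 0 lower and 0 higher. The cause of these shifts was not tested.

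Leaving out each heart gave 44 to 53 lower and 0 to 1 higher with medians of -0.34 to -0.29 at P7d against E18.5d, 26 to 31 lower and 4 to 9 higher with medians of -0.15 to -0.10 at P1d against E18.5d, and 22 to 31 lower and 0 to 3 higher with medians of -0.18 to -0.14 at P7d against P1d. Of all genes, 29.8 to 39.1%, 22.5 to 27% and 22.5 to 28.1% were lower in these fits, in the same order. The shares higher were 10.4 to 13.5%, 14.6 to 19.4% and 12.1 to 15.3%. Large minus small was -0.073 to -0.0028, -0.061 to -0.0045 and -0.077 to -0.015. The replicate block gave 51 lower and 0 higher, 31 and 9, and 28 and 1, and correlations of same-numbered hearts of -0.05 to 0.11 did not pair them. With the block, 36.4%, 27.1% and 28% of all genes were lower and 12.5%, 18.3% and 15% higher. By median of ratios the sign turned in 23 of the 78 members at P7d against E18.5d, in 5 at P1d against E18.5d and in 15 at P7d against P1d. Of the 23, *Mrpl34*, *Mrpl39* and *Mrps7* were called lower on the deposited scale and lost the call (0.02, 0.0078 and 0.02), *Mrps10* was called higher (0.18), and *Mrps23* went from -0.03 to 0.17 without a call on either scale. Among the named genes the length correction turned *Mrps21* (0.014) and *Mrps23* (0.18) at P7d against E18.5d and *Mrpl36* at P7d against P1d (0.041).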
